A study of Mus musculus with 4 samples.

Results

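The phagocyte NADPH oxidase is the enzyme with which neutrophils and macrophages make superoxide in the respiratory burst. Its membrane part is a flavocytochrome of a catalytic chain, gp91phox, and a stabilising chain, p22phox. In resting cells the organising and adaptor subunits lie in the cytosol, and on stimulation they move to the membrane together with a Rac GTPase and switch on electron transfer from NADPH to oxygen. In myeloid-derived suppressor cells (MDSC), an immature population that dampens T cell responses, reactive oxygen species from this enzyme are a known part of that action. The genes followed here were 5 of those that encode the complex: Cybb (gp91phox) and Cyba (p22phox) of the membrane, Ncf1 (p47phox, the organiser) and Ncf4 (p40phox, which binds a phosphoinositide of the phagosome membrane) of the cytosol, and Rac2, the Rac GTPase of blood cells.

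The mark measured was acetylation of lysine 9 of histone H3 (H3K9ac), which lies at active promoters, by chromatin immunoprecipitation and sequencing (ChIP-seq). The cells were mouse bone marrow-derived MDSC made senescent in vitro. One library came from cells under a condition called CM, which the labels do not expand, and the other from CM with romidepsin, a histone deacetylase inhibitor. The labels give no strain, age, dose or time, and with 1 library per condition no difference has a replicate check and no test was run. Every peak that touched a gene's RefSeq span plus 10 kb on either side was taken, which gave 13 of the 16419 peaks of the CM list and 37 of the 103336 peaks of the romidepsin list. All 5 windows held a peak in both, as did the windows of 58.8% of all 21887 protein-coding genes in CM and 72.2% with romidepsin. Each peak carries the fold enrichment over background and the −log10 q that the authors' peak caller gave it. These are averages over the peak. Since the 2 lists rest on different backgrounds, a fold is read here by its rank in its own list. The exception is a cut at a fold of at least 3, applied to both lists as an alternative setting. The number of reads is unknown, and a deeper library gives more and wider peaks.

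The labelled myeloid identity was set against marker genes. A CM peak lay within 1 kb of the start of 13 of 14 myeloid genes, with S100a9 the one without, against 1 of 8 lymphocyte genes (Cd4) and 1 of 6 stromal, endothelial or epithelial genes (Epcam). With romidepsin the counts were 13, 5 and 6. Over all genes the share with such a peak was 50.2% in CM and 63.0% with romidepsin. Where no start site was at hand, either end of the gene was used in these counts.

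The 250 bases before the start of Cybb, Cyba and Ncf1 are shown because the CM peaks described next stop short of, cross or cover them, and because of their base composition. They are RefSeq sequences of GRCm38.p6 (mm10), all on the minus strand, written 5′ to 3′ up to the base before the start. Capitals mark any match, on either strand, to 5 short motifs: CCAAT for the box of that name, GGGCGG for the GC box, GAGGAA for the PU.1 core, TATAA for the TATA box and TGACTCA for the AP-1 site.
Cybb, chrX:9469325-9469574: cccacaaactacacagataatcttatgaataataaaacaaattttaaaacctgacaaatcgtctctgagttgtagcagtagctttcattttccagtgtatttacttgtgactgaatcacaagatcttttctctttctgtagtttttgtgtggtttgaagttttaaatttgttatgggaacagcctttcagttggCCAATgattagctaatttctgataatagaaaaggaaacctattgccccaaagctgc
Cyba, chr8:122432941-122433190: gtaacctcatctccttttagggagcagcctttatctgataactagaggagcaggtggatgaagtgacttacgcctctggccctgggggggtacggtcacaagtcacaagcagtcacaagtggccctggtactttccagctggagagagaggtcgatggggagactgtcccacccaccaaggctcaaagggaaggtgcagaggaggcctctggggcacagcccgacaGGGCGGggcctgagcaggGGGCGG
Ncf1, chr5:134229626-134229875: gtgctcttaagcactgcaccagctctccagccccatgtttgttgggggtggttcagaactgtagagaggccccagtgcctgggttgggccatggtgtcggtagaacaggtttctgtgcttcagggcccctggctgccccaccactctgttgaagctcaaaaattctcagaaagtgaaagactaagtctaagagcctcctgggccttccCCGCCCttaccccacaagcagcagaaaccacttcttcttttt

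All 3 promoters were poor in CpG, the dinucleotide that is concentrated in the promoters of widely expressed genes. Cybb held 1 CpG and 34% G or C, Ncf1 held 2 CpG and 54.4%, and Cyba held 6 CpG and 60%. The ratio of observed to expected CpG was 0.139 in Cybb, 0.109 in Ncf1 and 0.275 in Cyba, which are percentiles 17.0, 13.5 and 31.2 among 17492 protein-coding genes with such a sequence. CCAAT, the box read by NF-Y among others, stood 56 to 52 bases before the start of Cybb, and 39% of all promoters hold it on some strand within 250 bases before to 50 after the start. GGGCGG, the GC box, stood at 24 to 19 and at 6 to 1 bases before the start of Cyba and, on the other strand, at 42 to 37 bases before that of Ncf1 (46.3% of all promoters). GAGGAA, a core sequence bound by the myeloid factor PU.1, was found on the other strand of Cybb at bases 10 to 15, counted from the start as base 1 (27.5% of all promoters). TATAA and TGACTCA (22.8% and 4.58% of all promoters) were not found in these windows of the 3 genes.

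All 5 oxidase genes had a CM peak within 1 kb of the start site or of a gene end, and all 5 had one with romidepsin. The shares over all genes were 50.2% and 63.0%. The strongest such CM peak had a fold of 6.45 at Rac2, 6.40 at Cyba, 5.70 at Ncf4, 5.57 at Ncf1 and 4.37 at Cybb. The median of these 5 was 5.70, against 5.79 over the 10979 genes with such a peak, so that the height of the marks was ordinary. Their lengths were not: 5141 bp at Cyba, 3777 bp at Ncf4, 3629 bp at Ncf1, 3467 bp at Cybb and 2126 bp at Rac2, where the median of all genes with a peak was 1589 bp. Among all CM peaks the first 4 of these lengths lay at percentiles 95.3 to 98.8, and that at Rac2 at 80.8. Such lengths were not particular to the oxidase genes. At the myeloid marker genes with such a CM peak, lengths ran from 1086 bp (Fcgr3) to 7409 bp (Spi1). The plot of peaks along each gene shows the peaks of the 5 oxidase genes to scale.

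**Figure D1:**
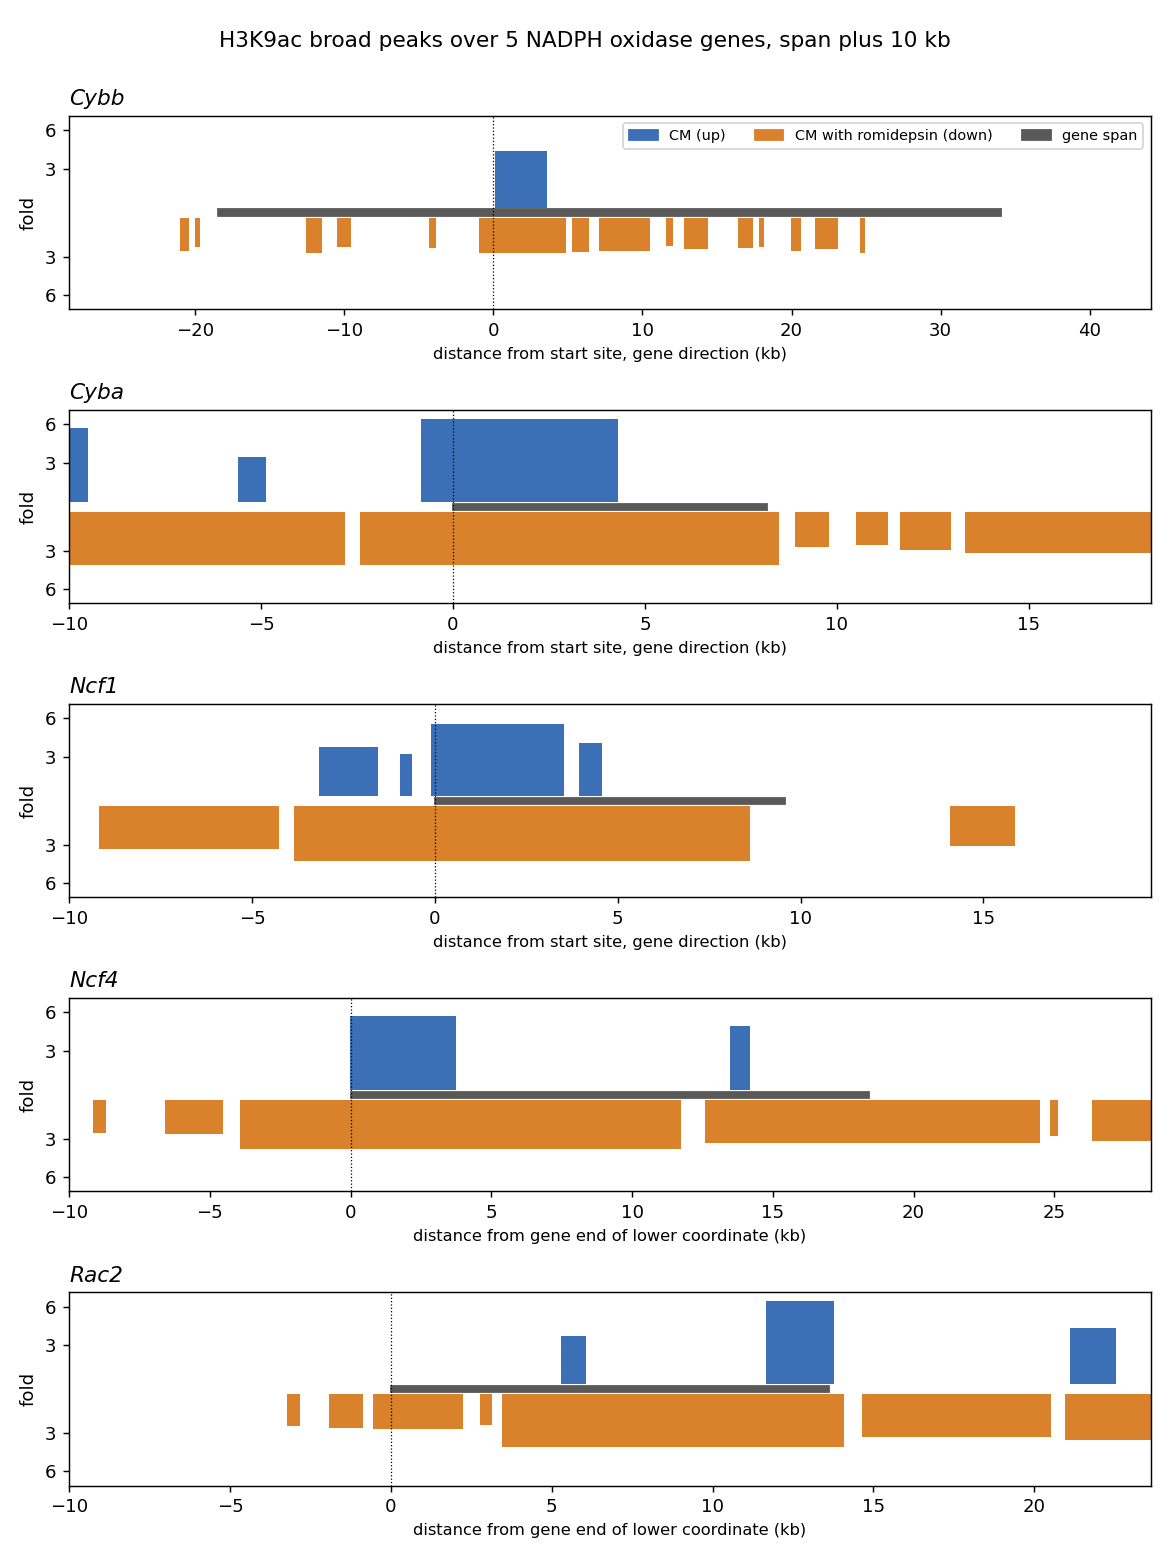
H3K9ac peaks over the span plus 10 kb of each of the 5 genes, with the distance in kb on the x axis and the peak's fold on the y axis (CM upward, CM with romidepsin downward, gene span as a grey bar). Distances run in the direction of the gene from the start site for Cybb, Cyba and Ncf1, and from the gene end of lower coordinate for Ncf4 and Rac2. CM shows 1 to 4 peaks per gene with 1 long peak at the start or a gene end, and romidepsin shows 3 to 15.

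CpG-poor starts seldom carried H3K9ac in these cells, and the 3 oxidase genes with a known promoter were among the exceptions. Genes were split into quintiles by their observed to expected CpG. In the lowest quintile, which holds Cybb and Ncf1, 8.49% of 3499 genes had a CM peak within 1 kb of a start site, and 19.7% had a romidepsin peak. In the next quintile, which holds Cyba, the shares were 22.2% and 39.4% of 3498 genes. In the highest quintile they were 87.9% and 93.7%. The ratio comes from the first start site listed for a gene. The members were chosen for their function, but with earlier results of these data known. These shares therefore describe the setting of the 3 genes and are no test of them.

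**Figure D2:**
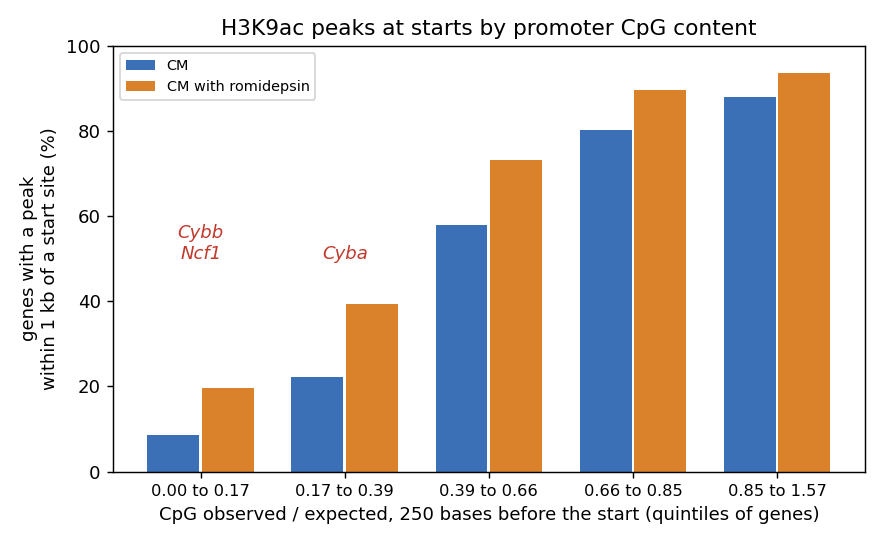
Share of genes (%) with an H3K9ac peak within 1 kb of a start site, by quintiles of observed to expected CpG in the 250 bases before the start, in CM and in CM with romidepsin. Cybb and Ncf1 fall in the lowest quintile (8.49% of genes with a CM peak) and Cyba in the second (22.2%).

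Cybb encodes the catalytic chain, which carries the flavin and haem groups and whose loss causes X-linked chronic granulomatous disease. Its RefSeq span runs from 9435252 to 9487766 on chromosome X (52.52 kb), and the start site used here, 9469324, lies inside that span. CM had a single peak over the whole window of Cybb, from 9465713 to 9469179 (fold 4.37, −log10 q 2.83). It began 145 bases downstream of the start and reached 3611 bases into the gene, so that none of the 300 promoter bases (250 before and 50 after the start) lay under it. Of the 3 genes with a promoter sequence, 1 was covered whole in CM (Cyba) and 3 with romidepsin, against 31.4% and 54.9% of all promoters. The arrangement of Cybb in CM, a peak within 1 kb of a start but none over the promoter itself, was found at 850 of all 17492 promoters (4.86%). CM peaks covered 5485 promoters whole and 2650 in part. CM covered 34.7% of the first 10 kb downstream and 0% of the 10 kb upstream.

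With romidepsin the Cybb window held 15 peaks, of which 1 overlapped the CM peak. That one ran from 9464417 to 9470303 (5887 bp, fold 2.74, −log10 q 2.55), covered all 300 promoter bases and reached 979 bases upstream and 4907 bases downstream of the start. Of the other peaks 9 lay downstream of the start used here and 5 upstream. Of these 5, 2 lay outside the RefSeq span and the rest inside it. The peaks without a CM counterpart were 293 to 3433 bp long, with folds of 2.17 to 2.75. Romidepsin peaks covered 89.6% of the first 10 kb downstream and 18.8% of the 10 kb upstream, and 45.8% of the whole stretch from the start to the far end of the gene. The last 9170 bases of that stretch held no peak. The acetylated sequence of Cybb thus lay wholly downstream of the start used here in CM and mostly so with romidepsin.

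Cybb had the lowest fold of the 5 genes in both lists. Its strongest start peak stood at percentile 11.0 of all genes with a peak in CM and 7.70 with romidepsin, while the other members stood at percentiles 41.1 to 76.1 and 48.0 to 82.9. Cybb is also the only X-linked member. Start peaks of X-linked genes had a median fold of 4.21 in CM (257 genes) and 2.88 with romidepsin (356 genes), against 5.82 and 3.87 for autosomal genes. Among X-linked genes alone, Cybb stood at percentile 59.5 in CM and 31.5 with romidepsin. The labels give no sex for the mice, and the part of the X chromosome in the low fold was not tested. Cybb was the member most sensitive to thresholds. At a −log10 q of at least 5 it had no peak in either list. At a fold of at least 3, or among equal numbers of strongest peaks, it kept its CM peak and had none with romidepsin. Both of these cuts are stricter for romidepsin. The median start fold over all genes was 3.86 there against 5.79 in CM, and equal numbers remove romidepsin peaks only.

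Cyba encodes the chain that holds gp91phox stable in the membrane. It spans 122424771 to 122432940 on chromosome 8 (8.17 kb). Its CM peak, from 122428631 to 122433771 (fold 6.40, −log10 q 6.63), was the longest of the 13 and covered the whole promoter. It reached 831 bases upstream and 4309 bases downstream of the start, and 52.8% of the gene lay under it. The other 2 CM peaks in the window lay upstream, over the neighbouring gene Mvd, an enzyme of cholesterol synthesis. The one of 726 bp was weak (fold 3.46), and the one from 122442458 to 122444731 (fold 5.70) covered the start of Mvd.

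With romidepsin 1 peak of 10907 bp, from 122424458 to 122435364 (fold 4.15), covered the whole of Cyba and ended inside Mvd. After a gap of 383 bases a second, of 12449 bp (fold 4.10), took in both Mvd peaks of CM. On the other side, 4 peaks without a CM counterpart (818 to 5009 bp, folds 2.59 to 3.19) ran across Il17c, a cytokine gene, to the end of Zc3h18. The gaps between the 6 peaks were 335 to 716 bases. Romidepsin peaks thus covered 92.1% of the window against 22.5% in CM.

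Ncf1 encodes the organiser that is phosphorylated on stimulation and opens to bind p22phox. It spans 134220053 to 134229628 on chromosome 5 (9.58 kb), between Gtf2ird2 and Gtf2i. CM had 4 peaks here, the most of any member. The main one, from 134226089 to 134229717 (fold 5.57, −log10 q 5.24), crossed the start, reached 3536 bases into the gene and only 92 bases upstream, and so covered 142 of the 300 promoter bases. Upstream of it, after a gap of 524 bases, lay peaks of 332 bp (fold 3.21) and 1618 bp (fold 3.77). A peak of 646 bp (fold 4.10) lay inside the gene. With romidepsin a single peak of 12468 bp, from 134221006 to 134233473, joined all 4 of them and covered 90.0% of the gene. Its fold of 4.27 was the highest of the 37 romidepsin peaks and lay at percentile 97.9 of its list. A second peak of 4934 bp (fold 3.32) followed after 413 bases and reached into Gtf2i, and one of 1773 bp (fold 3.12) lay over Gtf2ird2.

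The main CM peaks of Cyba, Ncf1 and Cybb reached far into the gene. The downstream reaches of Cyba and Ncf1, 4309 and 3536 bases, lay at percentiles 98.5 and 97.3 of the 7584 start-covering CM peaks, whose median was 1077 bases downstream and 531 bases upstream. The CM peak of Cybb does not cover its start and is not one of these, and its far end, 3611 bases downstream, would stand at percentile 97.4 among them. The upstream reach was unremarkable at Cyba (percentile 70.0) and short at Ncf1 (percentile 15.0). A longer reach downstream than upstream is usual and was found for 80.0% of those CM peaks and 72.2% of the romidepsin peaks over a start. With romidepsin the downstream reaches were 8482, 8619 and 4907 bases, for Cyba, Ncf1 and Cybb, at percentiles 90.0, 90.4 and 75.0. The upstream reaches were 2424 bases at Cyba (percentile 66.8), 3848 at Ncf1 (82.6) and 979 at Cybb (29.2). Counting all peaks within 10 kb, CM covered 20.4% upstream and 43.1% downstream at Cyba and 20.4% and 41.8% at Ncf1. The means over all genes were 4.73% and 7.67%, and the medians 0% and 3.515%. With romidepsin the sides were nearly even at both, 96.2% and 93.7% at Cyba and 87.8% and 86.2% at Ncf1. The means over all genes were then 25.5% and 31.9%, and the medians 12.5% and 19.8%. At Cyba the upstream side included peaks over Mvd. Of the 3 genes Cybb alone was covered mainly downstream in both lists. The profile around start sites shows both the common pattern and the 3 genes.

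**Figure D3:**
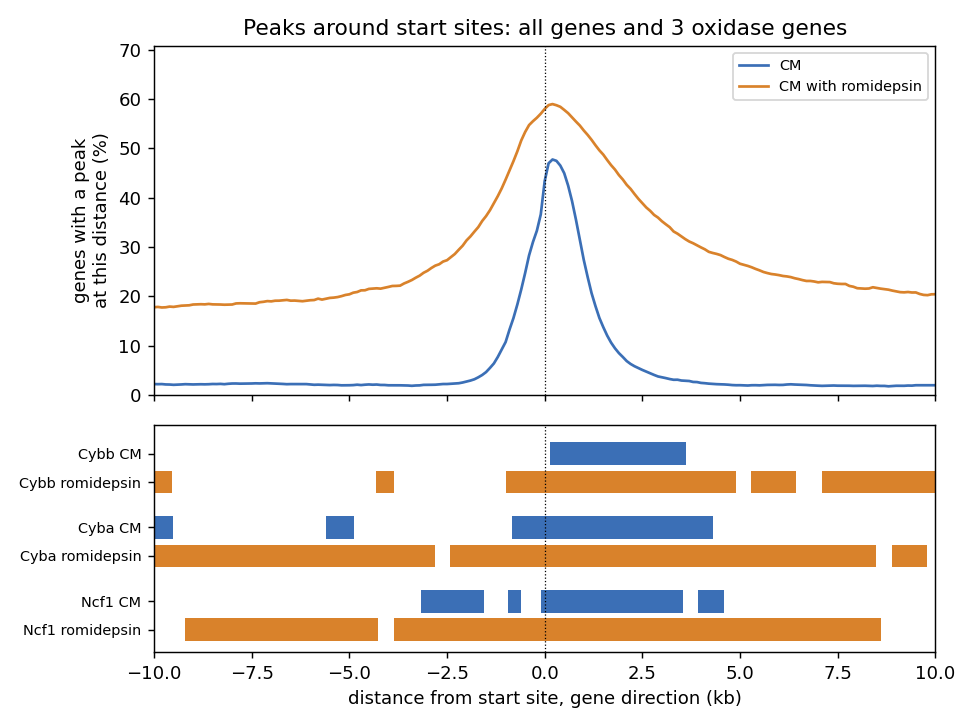
Upper panel: share of 17492 genes (%) with a peak at each distance (kb) from the start site, in the direction of the gene, in CM and in CM with romidepsin. Lower panel: peaks of Cybb, Cyba and Ncf1 on the same axis. The CM bars of all 3 genes reach beyond 3.5 kb downstream, where the CM curve is near its floor.

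Ncf4 encodes the adaptor p40phox. It spans 78244164 to 78262582 on chromosome 15 (18.42 kb), and neither its strand nor its promoter was in the table used. CM had a peak over the gene end of lower coordinate, from 78244144 to 78247920 (fold 5.70, −log10 q 5.37), which began 20 bases outside the gene and otherwise lay within it. A second CM peak, 709 bp long (fold 4.98), lay 9712 bases further on, inside the gene. With romidepsin 2 long peaks, 1 over each CM peak, took up almost the whole gene (95.4%): 15699 bp from 78240221 to 78255919 (fold 3.83), the longest of the 37, and 11895 bp from 78256772 to 78268666 (fold 3.36). A gap of 852 bases parted them. Both ran beyond the gene, by 3943 and 6084 bases. The other 4 romidepsin peaks lay outside the gene, were 296 to 2872 bp long and had folds of 2.54 to 3.21. No other protein-coding gene was touched by any peak of this window, so the acetylation there cannot be assigned to a neighbour by overlap.

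Rac2, whose product binds the oxidase in its GTP form, lies further along the same chromosome, at 78559169 to 78572783 (13.62 kb). Its strand was not in the table either. CM had its strongest peak of the 13 here, from 78570830 to 78572955 over the gene end of higher coordinate (fold 6.45, −log10 q 6.78). One of 771 bp lay inside the gene (fold 3.71), and one of 1427 bp lay outside it, beyond the same end (fold 4.34). A romidepsin peak of 10639 bp, from 78562632 to 78573270 (fold 4.13), joined the first and second of these, and one of 4914 bp (fold 3.58) covered the outer peak. Between them lay a peak of 5876 bp without a CM counterpart (fold 3.30). Towards the opposite end of the gene 4 weaker peaks followed (364 to 2794 bp, folds 2.38 to 2.72). The gaps between the 7 peaks were 315 to 915 bases. With peaks closer than 1 kb merged, Rac2 fell into 1 romidepsin domain of 62.6 kb, from 78555929 to 78618494, which ran far beyond its window. The same merging gave domains of 11.5 kb at Cybb, 36.3 kb at Cyba, 17.8 kb at Ncf1 and 31.7 kb at Ncf4. No background over all genes is given for these lengths.

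A romidepsin peak enclosed each of the 13 CM peaks from end to end, as it did 97.9% of the whole CM list. They fell into 8 romidepsin peaks of 4914 to 15699 bp (median 11401 bp, fold 2.74 to 4.27), where the median length of all romidepsin peaks over a CM peak was 4865.5 bp. The other 29 romidepsin peaks (78.4%, against 87.1% of the whole list) had no CM counterpart. Their median length was 1007 bp and their median fold 2.59, where all such peaks had medians of 806 bp and 2.58. The 14 at Cybb were shorter and weaker (median 819.5 bp, fold 2.42) than the 15 at the other 4 genes (median 1308 bp, fold 2.76). The longest of the latter, 5876 bp at Rac2, 5009 bp at Cyba and 4934 bp at Ncf1, had folds of 3.30, 3.19 and 3.32, at percentiles 80.3 to 83.9 of the list.

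More of every window was covered with romidepsin, which was so for 72.2% of all genes. The covered share of the window in CM and with romidepsin was 4.78% and 27.5% at Cybb, 22.5% and 92.1% at Cyba, 21.0% and 64.8% at Ncf1, 11.7% and 84.6% at Ncf4, and 12.9% and 70.8% at Rac2. The medians over all genes were 1.46% and 12.0%. High shares were not particular to the members, whose medians were 12.9% and 70.8%. The medians were 12.0% and 62.5% for the 14 myeloid marker genes and 8.70% and 62.6% for 12 regulators of the oxidase. Without Cybb the members stood at percentiles 90.4 to 97.8 of all genes in CM and 90.3 to 98.9 with romidepsin, and Cybb, which has by far the longest span, at 72.1 and 66.5. The ratio to CM was not unusual: romidepsin peaks covered 3.08 times as many bases as CM peaks at Ncf1, 4.08 times at Cyba, 5.50 times at Rac2, 5.75 times at Cybb and 7.25 times at Ncf4, against a median of 5.56 (interquartile range 3.80 to 8.86) over the 12879 genes with CM coverage. The number of peaks behaved differently. It was higher with romidepsin at Cybb (1 and 15), Cyba (3 and 6), Ncf4 (2 and 6) and Rac2 (3 and 7) and lower at Ncf1 (4 and 3), where 1 peak spanned all 4 of CM. It was higher at 65.2% of all genes.

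**Figure D4:**
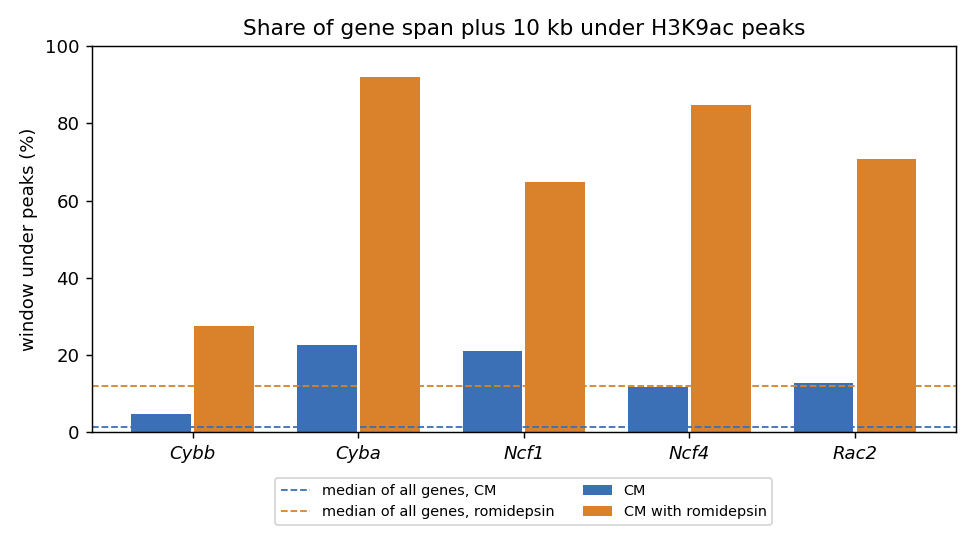
Share (%) of each gene's span plus 10 kb under H3K9ac peaks in CM and in CM with romidepsin, with 1 library per bar. Dashed lines give the medians over all 21887 protein-coding genes (1.46% and 12.0%). Every bar lies above the line of its own condition, with Cybb the lowest (4.78% and 27.5%).

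The lengths of the start or end peak in the 2 lists were closest at Cybb. The romidepsin peak was 1.70 times as long as the CM peak there, 2.12 times at Cyba, 3.44 times at Ncf1, 4.16 times at Ncf4 and 5.00 times at Rac2. A long CM peak leaves less room for a high ratio, so each was set beside CM peaks within 25% of its own length. Against these the ratio lay at percentile 5.65 for Cybb, 30.0 for Cyba, 57.2 for Ncf1, 72.3 for Ncf4 and 76.3 for Rac2. Cybb's ratio was below the lower quartile of its 1487 peaks of like length (2.32), and the other 4 genes lay within or near the quartiles of theirs. The low ratio of Cybb depends on where its peaks were split. Downstream of its romidepsin peak, after gaps of 376 and 669 bases in turn, lay peaks of 1156 and 3433 bp. Merging peaks closer than 1 kb gave a romidepsin domain of 11.5 kb there, against the CM peak of 3467 bp. The peaks of like length were not merged for this comparison. By rank of fold among genes with a start or end peak, Ncf1 stood at percentile 41.1 in CM and 82.9 with romidepsin. The ranks of the others were nearer to each other, 46.5 and 48.0 at Ncf4, 74.4 and 74.7 at Cyba, 76.1 and 73.8 at Rac2 and 11.0 and 7.70 at Cybb.

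**Figure D5:**
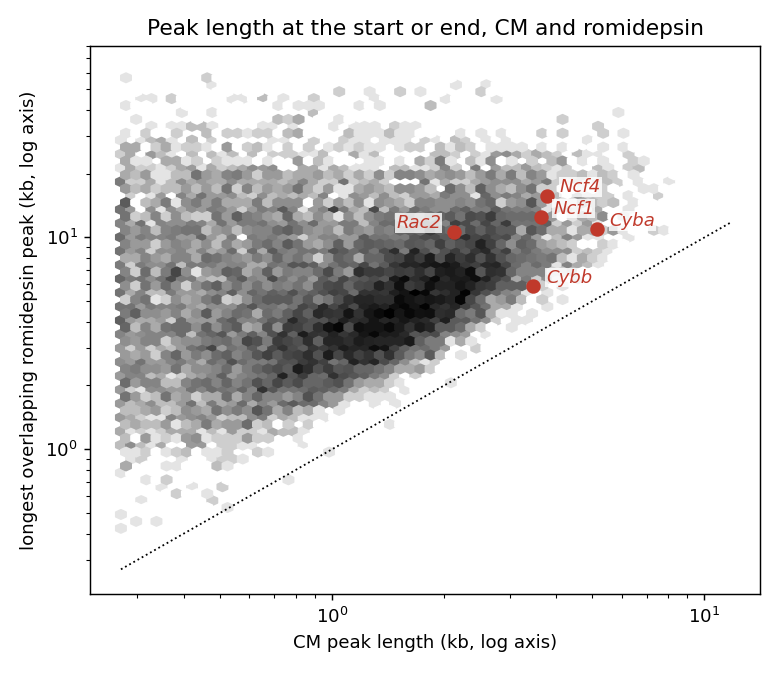
Length of each CM peak (x, kb, log axis) and of the longest romidepsin peak over it (y, kb, log axis). Grey hexagons hold all CM peaks with a partner, darker where more fall, red points mark the start or end peaks of the 5 genes, and the dotted line marks equal length. Cybb lies nearest to that line (1.70 times) and Rac2 farthest (5.00 times).

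Genes around the oxidase were listed by role. Regulators of the phagocyte enzyme had a start or end peak at 11 of 12 genes in CM and at the same number with romidepsin. Their median folds were 6.34 and 4.09. They included Cybc1, the chaperone of the flavocytochrome (fold 6.02 in CM and 3.86 with romidepsin), the exchange factors Vav1 (6.91 and 4.38) and Prex1 (7.09 and 4.13) that load Rac with GTP, and the kinase gene Prkcd (6.83 and 4.24), whose romidepsin peak was 40921 bp long. Nrros, which encodes a protein of the endoplasmic reticulum that limits gp91phox, had a CM peak of 7465 bp (fold 6.69), longer than any at the 5 oxidase genes, and a romidepsin peak of 9983 bp (fold 4.58). At Hvcn1, the proton channel that balances the oxidase's charge, the strongest peak at a gene end had a fold of 3.77 in CM, where it also lay over Tctn1, and 3.90 with romidepsin, at the opposite end. Its window held 4 CM and 11 romidepsin peaks, which covered 9.32% and 71.9% of it. S100a9 had none within 1 kb.

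Oxidases of other tissues had few peaks. Of Nox1, Nox3, Nox4, Noxo1, Noxa1, Duox1, Duox2, Duoxa1 and Duoxa2, which serve epithelia, the inner ear, kidney and thyroid, 1 of 9 had a start peak in CM and 3 of 9 with romidepsin. The one in CM was Noxo1 (fold 6.19 in CM, 3.97 with romidepsin), in peaks that also lay over Gfer. Duox2 and Duoxa2 shared a romidepsin peak of 354 bp (fold 2.68). Nox1, Nox3, Nox4 and Noxa1 had no peak of either list within their spans plus 10 kb. Enzymes that remove superoxide or peroxide had a start or end peak at 6 of 7 genes in CM and as many with romidepsin. Sod3, the extracellular superoxide dismutase, had none in either list. Gpx1, a glutathione peroxidase, had the highest CM fold of them (7.20), and Sod1 and Sod2, the cytosolic and mitochondrial dismutases, had 6.31 and 5.40. These counts stand beside 50.2% and 63.0% of all genes.

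The genes with the most similar layout of peaks were found by the share of 100-base bins, within 10 kb of the start in both lists, that were covered in both genes out of those covered in either. For Cybb these were Prkar1a (0.841), Egr2 (0.837) and Wsb1 (0.836), for Cyba Ppp1r18 (0.903), Ninj1 (0.889) and Ifitm1 (0.888), and for Ncf1 Tgif1 (0.889), Zfp217 (0.853) and Atf3 (0.843). The median over all genes was 0.168 to 0.188 for the 5 members. Ncf4 and Rac2 were compared from the gene end of lower coordinate, which for Rac2 is not the end with the strong CM peak. Ncf4 was most like Pde4b (0.892) and Cdkn2d (0.886), and Rac2 most like Rxfp4 (0.805), Tpm1 (0.789) and Lipa (0.756). Of the genes most like Rac2, Rxfp4 and Tpm1 had a romidepsin peak but no CM peak within 1 kb of a start. Genes on the same chromosome within 1 Mb were left out, so Ncf4 and Rac2 could not be found for each other. Apart from that pair, no member was among the 3 nearest of another.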

How the data were processed

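Broad H3K9ac peaks of 2 immunoprecipitated libraries were used, 1 per condition. Data of the input libraries did not enter. The submitters' processing notes name mm10 as the build, Bowtie2 (2.4.4), MACS2 (2.2.7.1) and deepTools (3.5.1). Settings, read filters and the role of the input are not given in the sources used here. The deposited lists hold for each peak its position, the authors' peak score, which was not used, a fold (ratio over background) and −log10 values for p and q (−log10 p-value, −log10 q-value).

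Positions were made 1-based. Gene spans of 21887 protein-coding genes came from RefSeq (GRCm38.p6), which gave no exons. Start sites came from RefSeq promoter sequences for 17492 genes, Cybb, Cyba and Ncf1 among them. The other 4395 genes, Ncf4 and Rac2 among them, were treated by both gene ends. An overlap needed 1 bp. The strongest peak by fold within 1 kb was a gene's start or end peak. Percentiles give the share of peaks or genes with a lower value (ties count in part). Overlap and coverage code was tested on simulated data. Python (version 3.11.15) and pandas (version 2.3.3) were used.

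The 5 genes, the gene lists and the rules were chosen with earlier results of these data known. Named genes were the 5 members, the listed genes, neighbours touched by a member's peak and the 3 genes most alike in layout, of which 1 is not reported here. No test was run.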

Additional observations from a re-analysis of the deposited data

How the results depend on the processing

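No paired analysis was possible because each condition had 1 library. Of 46 alternatives over 8 results, 35 stayed within 1.5 times the reported value, among them every count of the 5 members, or of the related genes, with a peak at the start. The others follow. At a −log10 q of at least 5, the 13 CM peaks became 5 and the 37 romidepsin peaks 6, covering 15156 and 59569 bases in place of 24852 and 121355. Equal numbers of strongest peaks left 7 romidepsin peaks over 71464 bases. A fold of at least 3 left 12 romidepsin peaks, and merging of peaks closer than 1 kb gave 15. Gene spans alone held 8 CM and 20 romidepsin peaks, the latter over 66199 bases. So the excess in the number of romidepsin peaks was small or absent at stricter settings: 6 against 5 at the stricter q, and 7 against 13 with equal numbers. The bases covered stayed higher with romidepsin. They were 59569 against 15156 at the stricter q, 71464 against 24852 with equal numbers, and 90967 against 24852 at a fold of at least 3. Equal numbers kept all 16419 CM peaks and as many of the 103336 romidepsin peaks, so only the romidepsin count could fall. Over all genes, the share with a start or end peak was then 50.2% in CM and 50.7% with romidepsin. Read depth is unknown.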
